A study of Homo sapiens with 8 samples.

Results

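The NOTCH pathway genes followed here are the receptors NOTCH1, NOTCH2, NOTCH3 and NOTCH4, the ligands JAG1, JAG2 and DLL1, the DNA-binding effector RBPJ, and the target genes HES1 and HEY1. Their chromatin was read from H3K27ac peaks in A549, a human lung adenocarcinoma line in which the transcription factor NRF2 is persistently active. Overlapping peaks of the 6 libraries (1 base was enough) were joined into regions. A region was assigned to a gene when it overlapped the gene body or the 50 kb on either side. This gave 54 regions for the 10 genes out of 49186 regions in all, of which 7 belonged to NOTCH3 and 47 to the other genes. The rule uses position only, and several regions lie at the start of a neighbouring gene, which is named where that is so.

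The study compared A549 cells transfected with control siRNA (3 libraries) with A549 cells transfected with an siRNA against NRF2 (3 libraries). The cells were harvested after 48 hours. The NRF2 siRNA was number 28 in replicate 1 and number 30 in replicates 2 and 3. All libraries come from 1 cell line, so that nothing here speaks of other tumours or of normal lung. The 2 input samples were not analysed here. The study calls the replicates biological and the experiments independent, while the labels do not say what was repeated, and the p-values measure the spread between these libraries. Fewer cells carrying the mark and less of the mark per cell cannot be told apart in such libraries.

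NOTCH signalling runs from cell to cell. A JAG or DLL ligand on one cell binds a NOTCH receptor on its neighbour, proteases release the intracellular part of the receptor, and this part enters the nucleus, joins RBPJ and a MAML coactivator on DNA, and switches on HES and HEY genes, which encode repressors of transcription. H3K27ac, acetylation of histone H3 at lysine K27, marks active enhancers and promoters. NRF2 binds antioxidant response elements (AREs) together with a small MAF protein and drives genes for antioxidant defence and detoxification.

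The NOTCH3 region with the largest change lies upstream of the gene, and its sequence is shown because it holds overlapping matches to the ARE core. The window is chr19:15321140-15321379 (hg19, plus strand), taken from the GRCh37 sequence, and capitals mark a pair of overlapping matches to TGACNNNGC, the first on the plus strand and the other on the minus strand.

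NOTCH3 upstream window: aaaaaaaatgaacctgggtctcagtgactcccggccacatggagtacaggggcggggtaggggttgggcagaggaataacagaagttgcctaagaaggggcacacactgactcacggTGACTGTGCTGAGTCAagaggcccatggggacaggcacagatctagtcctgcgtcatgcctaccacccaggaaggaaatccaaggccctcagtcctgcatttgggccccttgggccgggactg

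Below it stand 250 bases of promoter for NOTCH3, whose start had no peak in any library, and for HES1, whose start had a peak in every library. They are chr19:15311807-15312056 (minus strand) and chr3:193853687-193853936 (plus strand), both hg19. Capitals mark TGGGAA, the core of the RBPJ site, on either strand.

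NOTCH3 promoter: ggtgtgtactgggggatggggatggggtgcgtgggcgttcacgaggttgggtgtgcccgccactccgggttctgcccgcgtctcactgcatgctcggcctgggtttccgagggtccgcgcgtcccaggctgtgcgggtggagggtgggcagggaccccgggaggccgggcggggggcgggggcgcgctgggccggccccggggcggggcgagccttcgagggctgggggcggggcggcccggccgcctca

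HES1 promoter: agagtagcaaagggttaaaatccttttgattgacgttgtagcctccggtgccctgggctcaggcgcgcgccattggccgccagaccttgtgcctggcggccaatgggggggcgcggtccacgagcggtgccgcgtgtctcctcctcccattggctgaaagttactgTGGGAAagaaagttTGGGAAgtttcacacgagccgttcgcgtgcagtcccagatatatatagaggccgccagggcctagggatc

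The HES1 promoter held 2 matches to the RBPJ core and the NOTCH3 promoter held 0. Of the 250 bases upstream of all 20163 protein-coding starts, 20.43% held at least 1 match and 2.564% at least 2. The NOTCH3 promoter had a GC content of 78%, against 59.2% for HES1 and a median of 61.2% over coding genes. These matches describe letters and do not show that a factor was bound.

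The control lists held 27941, 34747 and 41571 peaks in replicates 1 to 3, and the NRF2 siRNA lists 23885, 34986 and 39108. The genes' regions had a peak in 33, 39 and 49 of 54 cases in control and in 30, 37 and 43 in NRF2 siRNA libraries. Within each group, longer lists had more. Of the replicate 2 lists, the NRF2 siRNA one was slightly longer but had fewer. Per the study's read totals, both replicate 1 libraries were sequenced less deeply than the others, and siRNA 28 was used only there. The part of depth in the results was not tested. Each peak carries a fold enrichment over background, and its percentile among all peaks of the same list is used below as the level of a region. A percentile in a long list is set against more weak peaks than one in a short list. For testing, regions with a peak in at least 3 libraries were ranked within each library and the rank was turned into a normal score. A change of 1 is thus 1 standard deviation of a standard normal distribution. A library without a peak took the lowest rank. A change is NRF2 siRNA minus control. Of the 54 regions, 39 were tested, 28 had a peak in all 6 libraries, and 12 of the 15 not tested had a peak in a single library. The starts of the epithelial genes EPCAM, CDH1, KRT7, KRT8 and KRT18 had a peak in all 6 libraries and that of KRT19 in 0. The starts of 4 alveolar type 2 cell genes (NKX2-1, SFTPA1, SFTPB and SFTPC) had a peak in 0 libraries, and the same held for 3 leukocyte, 1 endothelial and 3 fibroblast genes.

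Across the NOTCH genes, 1 tested region fell and 0 rose (limma, adjusted p below 0.05). The region that fell lies upstream of NOTCH3. At an unadjusted p below 0.05 in limma, 2 were lower and 3 higher, where 3485 and 3876 of all 32673 regions tested were. At the adjusted threshold, 3.39% of all regions tested fell and 2.01% rose. The shares among the NOTCH genes, 2.56% and 0%, thus lay near or under the background. The changes of the 39 regions ran from -1.30 to 0.89 with a median of 0.05. The median over all regions was 0.02. Of the 39, 18 changes were negative and 21 positive. With the replicate number as a block, 2 regions fell and 1 rose, the additional ones being a region near JAG2 and one in RBPJ. The share of all regions with the block is not given here. On the score, libraries of the 2 groups did not overlap in 5 regions that were lower and in 4 that were higher with NRF2 siRNA. Of all tested regions, 13.6% and 14.6% did so. None of the 54 regions had a peak in all 3 control and 0 NRF2 siRNA libraries, a pattern of 2.27% of all 49186 regions. None had the opposite pattern, which 0.83% of all regions showed.

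**Figure D1:**
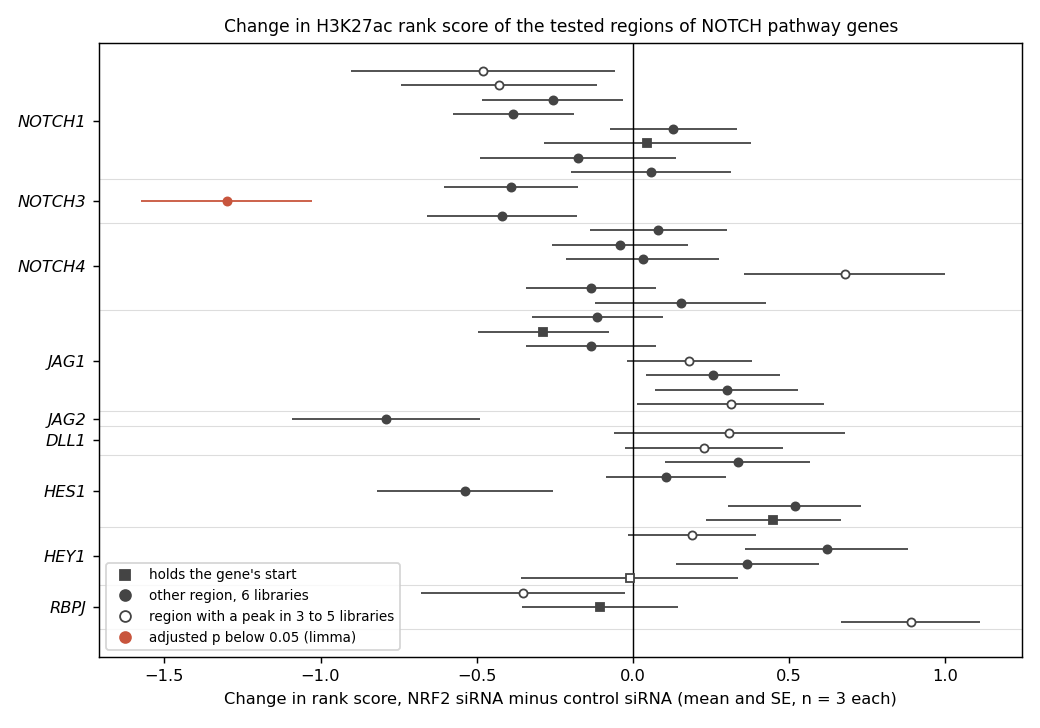
Change in rank score (x axis, units of the normal score, mean of 3 NRF2 siRNA minus mean of 3 control libraries, bars are SE) for the 39 tested regions, grouped by gene on the y axis and ordered by position along the direction of transcription from upstream at the top. Squares hold the gene's start, open symbols lack a peak in at least 1 library, and the single red point is the NOTCH3 upstream region at -1.30.

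NOTCH3 encodes a receptor (ENSG00000074181.9_9, chr19:15269849-15311806, minus strand). The region upstream of it (chr19:15320011-15323763, 3753 bp) lies between genes, 8205 bp from the NOTCH3 start. Its percentile was 92.8, 87.9 and 84.6 in control replicates 1 to 3. It was 36.1, 50.3 and 38.4 in NRF2 siRNA replicates 1 to 3. Every control library lay high in its list and every NRF2 siRNA library near or below the middle, with a wide gap between the groups. The mean percentile fell from 88.4 ± 4.14 with control siRNA to 41.6 ± 7.6 with NRF2 siRNA (SD, n = 3 each). The difference of -46.8 had an exact two-sided permutation p of 0.1, the smallest that 3 against 3 libraries allow. The score changed by -1.30 (SE 0.274, adjusted p = 0.0309 in limma over all regions). The 3 pairs of the same replicate number gave -1.34, -1.16 and -1.40. The change was seen with siRNA 28 in pair 1 and with siRNA 30 in pairs 2 and 3. The change with siRNA 28 and that with siRNA 30 differed by -0.06 (adjusted p = 0.968 in limma). This does not show that they act alike, and siRNA 28 and the peak naming of replicate 1 cannot be told apart. Of all tested regions, 2.29% had a lower change. The fall of this region was already known from these libraries, so the tests of it are not independent support.

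The fall in NOTCH3 upstream was also seen in the authors' own fold enrichment, which is not set to a common scale between lists. It was 8.98, 7.80 and 8.63 in control and 3.55, 4.14 and 3.36 in NRF2 siRNA replicates 1 to 3. The −log10 q-value of the peak was 20.2, 17.7 and 26.7 in control replicates 1 to 3, and 2.43, 5.55 and 3.96 with NRF2 siRNA. The peak was therefore still called in every NRF2 siRNA library. Leaving out any library but NRF2 siRNA replicate 1 took the adjusted p above the threshold. It was 0.097 without control replicate 1, 0.133 without control 2, 0.102 without control 3, 0.116 without NRF2 siRNA 2 and 0.0895 without NRF2 siRNA 3 (limma). The change stayed between -1.59 and -1.14 in these fits.

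**Figure D2:**
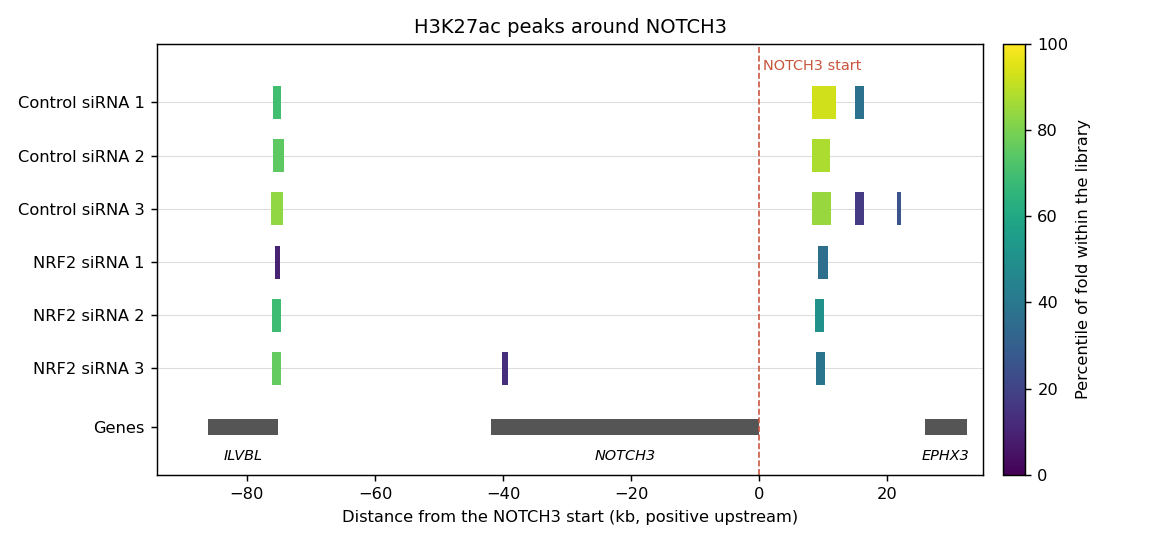
Peaks of the 6 libraries (one line each) along the NOTCH3 locus, by distance from the NOTCH3 start in kb (positive is upstream). Colour gives the percentile of the peak's fold within its library and grey bars are genes. The peak 8205 bp or more upstream is bright and wide in the control lines, and dark and narrow in the NRF2 siRNA lines. No line has a peak at the start.

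The acetylated stretch upstream of NOTCH3 was shorter as well as weaker. Peaks covered 3673, 2721 and 2977 bp in control and 1579, 1357 and 1380 bp in NRF2 siRNA replicates 1 to 3. The groups did not overlap, and the ratio of the means was 0.461 (exact two-sided permutation p = 0.1). It was the lowest of the 28 regions with a peak in all 6 libraries, whose median ratio was 0.944. Covered length was shorter without overlap in 1 of the 28 regions, where 7.65% of all regions in 6 libraries were. The median ratio over those regions was 0.925. The control peaks began at 15320091, 15320121 and 15320011 and the NRF2 siRNA peaks at 15321046, 15320532 and 15320738, so that the NRF2 siRNA peaks started farther from NOTCH3 in each pair. On the far side, control peaks reached 15323763, 15322841 and 15322987 and NRF2 siRNA peaks 15322624, 15321888 and 15322117.

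**Figure D3:**
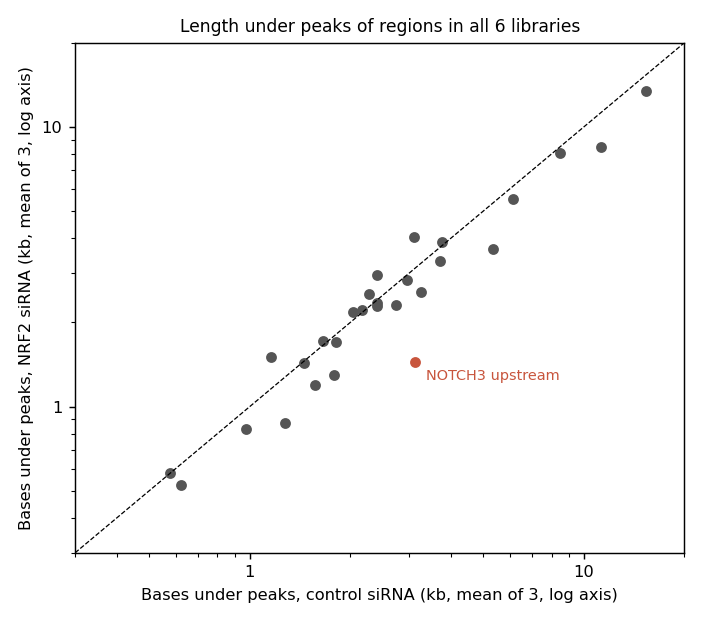
Mean length under peaks in NRF2 siRNA (y axis) against control libraries (x axis), both in kb on log axes and over 3 libraries each, for the 28 regions with a peak in all 6 libraries. The dashed line marks equal lengths. NOTCH3 upstream lies farthest below it, at a ratio of 0.461.

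The stretch still acetylated in every NRF2 siRNA library held the overlapping ARE core matches printed above. The NOTCH3 upstream region held 4 matches to TGACNNNGC on both strands. The pair at 15321257 and 15321264 lay within the peak in 3 of 3 control and 3 of 3 NRF2 siRNA libraries. The match at 15320679 lay within it in 3 control libraries and 1 NRF2 siRNA library, and the match at 15320042 in 1 control library. Among 5402 tested regions of similar width (within 20%), 73.0% held at least 1 match and 6.0% held 4 or more. A match to TTGCNNAA, the C/EBP site, at 15321225 lay within the peak in all 6 libraries, while 85.4% of regions of similar width held at least 1. The region held 1 match to the RBPJ core, at 15322976, within 2 control peaks and 0 NRF2 siRNA peaks, and 95.7% of similar regions held at least 1. All positions are first bases on chromosome 19 in hg19.

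The start of NOTCH3 (15311806) had no peak in any library. The nearest peak was the upstream one, 8285, 8315 and 8205 bp away in control and 9240, 8726 and 8932 bp away in NRF2 siRNA replicates 1 to 3. A start without a peak was common in these lists. Of 20163 coding starts, 49.0% lay in no region and 35.5% in a region with a peak in all 6 libraries. Of the 1605 starts with a promoter GC content of 75% or more but under 80%, the range that holds NOTCH3, 40.1% had a region in 6 libraries within 1 kb and 30.2% had none. An absent peak means only that the enrichment did not pass the caller's threshold at the depth of these libraries.

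Of the other NOTCH3 regions, 4 are described here. The one at the start of ILVBL (chr19:15235637-15237615), downstream of NOTCH3, had percentiles of 69.7, 75.3 and 83.4 in control and 9.7, 68.9 and 76.1 in NRF2 siRNA replicates 1 to 3. On the score, every NRF2 siRNA library lay under every control library, with replicate 1 lowest. The score change was -0.42 (SE 0.240, adjusted p = 0.345 in limma), from -0.84, -0.19 and -0.22 in pairs 1 to 3. The region at ILVBL was thus lower in all 3 pairs, but its change did not pass the test. Of the 3 tested NOTCH3 regions, 3 changes were negative and 1 passed the test. Whether the upstream change differs from the others was not tested.

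The other 3 had a peak in 1 or 2 libraries and were not tested. One, 14912 bp upstream, had peaks at percentiles 37.3 and 17.3 in control replicates 1 and 3. One, 21470 bp upstream, had a peak at 25.9 in control replicate 3. The only one inside the NOTCH3 gene body, overlapping an exon (chr19:15271687-15272555), had a peak at 13.0 in NRF2 siRNA replicate 3. All lay below the middle of their lists.

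The upstream region of NOTCH3 was compared with the start regions of the genes that had one, by taking the difference in score within each library. Against the HES1 start, the difference was 0.25, -0.39 and -0.15 in control and -1.42, -1.84 and -2.28 in NRF2 siRNA replicates 1 to 3. NOTCH3 upstream ranked close to the HES1 start in control libraries and far under it in all NRF2 siRNA libraries. The difference changed by -1.75, by -1.35 against the NOTCH1 start, by -1.20 against RBPJ and by -1.01 against JAG1. These 4 comparisons did not overlap between groups, and each had an exact permutation p of 0.1, or 0.125 adjusted over 5 comparisons. Against JAG1 the groups barely parted, with control replicate 3 at -0.707 and NRF2 siRNA replicate 1 at -0.713. Against the HEY1 start, which had no peak in replicate 1 of either group and took the lowest rank there, the change was -1.29, the groups overlapped, and the exact permutation p was 0.2. All 5 differences were lower in 3 of 3 pairs. With 3 libraries against 3 none of these tests can go below 0.1. The 5 share the upstream values and are not independent of each other. Because the upstream region was taken with its fall in these libraries known, lower differences were likely beforehand and add no independent support.

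**Figure D4:**
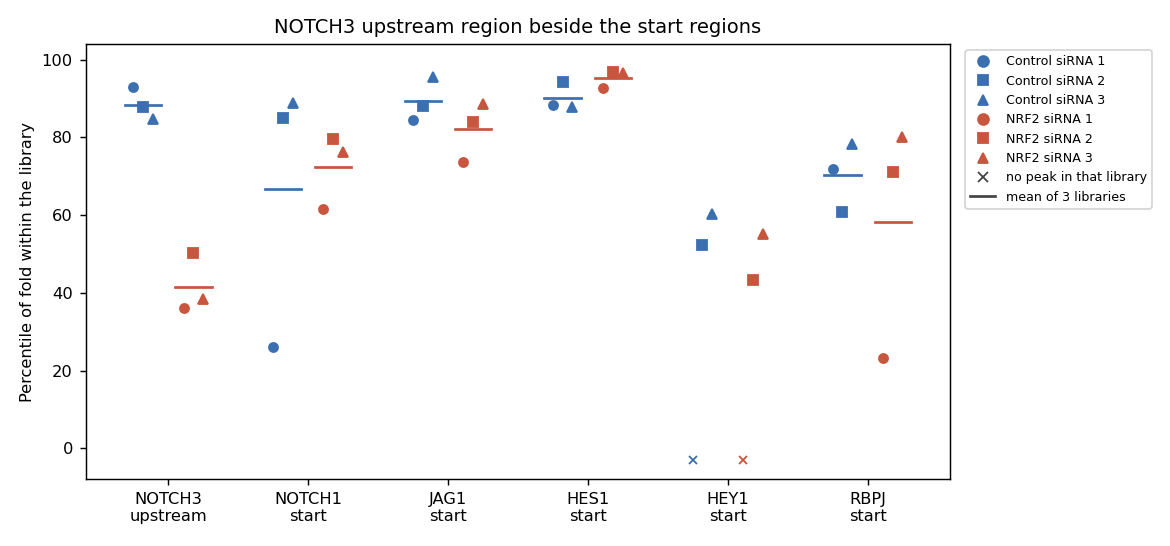
Percentile of the peak's fold within its library (y axis) for the NOTCH3 upstream region and the start regions of 5 other genes (x axis), blue for control and red for NRF2 siRNA, with the symbol giving the replicate, bars the means of 3 and crosses libraries without a peak. At NOTCH3 upstream the group means are 88.4 and 41.6, and at the 5 starts the groups overlap or lie close together.

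Of the other receptors, NOTCH1 had the most regions. Its start region (chr9:139439893-139441966) had percentiles of 26.0, 84.9 and 88.8 in control and 61.6, 79.5 and 76.1 in NRF2 siRNA replicates 1 to 3. Replicate 1 was lowest in both groups and the groups overlapped. The score change was 0.05 (SE 0.332, adjusted p = 0.954 in limma), from 0.84, -0.21 and -0.49 in pairs 1 to 3, so that the pairs disagreed in sign. The peaks stopped 122 to 283 bp short of the start itself in 5 of 6 libraries. A region in the NOTCH1 gene body (chr9:139413222-139417123) was at 77.8, 89.9 and 95.8 in control and 50.3, 90.4 and 94.6 in NRF2 siRNA replicates 1 to 3, a score change of -0.17. A region 10886 bp upstream of NOTCH1 was at 46.3, 63.1 and 72.6 in control and 19.0, 49.9 and 50.3 in NRF2 siRNA replicates 1 to 3. Its scores did not overlap between groups, and its change was -0.38 (SE 0.194, adjusted p = 0.285 in limma). The most negative change of NOTCH1, -0.48 (adjusted p = 0.557 in limma), belonged to a region 49103 bp upstream with no peak in 3 of 6 libraries. Over the 8 tested NOTCH1 regions, 5 changes were negative and 3 positive, with a median of -0.22.

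NOTCH2 had a single region, 23 bp from its start, with a peak at percentile 38.3 in control replicate 3 and at 40.8 in NRF2 siRNA replicate 3. It was not tested. The first exons of NOTCH2 have near-identical copies in the NOTCH2NL genes, and reads of low mapping quality had been removed, so that peaks at this start are uncertain. NOTCH4, a receptor mainly of endothelial cells, had no peak at its start in any library. Its 6 regions lay mostly at the starts of neighbouring genes, and the one overlapping the NOTCH4 gene body also held the start of GPSM3, with percentiles from 72.3 to 85.0 and a change of -0.04. The most positive NOTCH4 change, 0.68 (SE 0.322, adjusted p = 0.253 in limma), belonged to a region 37682 bp past its start, close to the start of AGER. It had a peak at 42.5 in control replicate 3 and at 41.8 and 49.0 in NRF2 siRNA replicates 2 and 3. Of the 14 tested regions of NOTCH1 and NOTCH4, 7 changes were negative and 7 positive, and 0 passed the test in limma. At an unadjusted p below 0.05 there were also 0, where 3485 of all 32673 tested regions were lower and 3876 higher.

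Among the ligands, JAG1 had strong acetylation in every library. Its start region (chr20:10650342-10656953) was at percentiles of 84.6, 87.9 and 95.4 in control and 73.7, 84.0 and 88.6 in NRF2 siRNA replicates 1 to 3. The scores did not overlap, but the change of -0.29 (SE 0.209, adjusted p = 0.47 in limma) was small beside the spread. A broad domain of 17002 bp, 30247 bp upstream of JAG1 (chr20:10684894-10701895), was at 96.2, 96.5 and 97.2 in control and 88.7, 96.4 and 97.6 in NRF2 siRNA replicates 1 to 3. It changed by -0.11 (adjusted p = 0.802 in limma). The 7 tested JAG1 regions ran from -0.29 to 0.31.

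JAG2 had no peak at its start in any library. The only tested JAG2 region (chr14:105552558-105561617, 9060 bp) lies downstream of the gene, 73544 bp from its start, over the noncoding gene LINC02298. It ranked among the strongest peaks, at 99.2, 99.6 and 99.98 in control and 95.0, 97.7 and 99.4 in NRF2 siRNA replicates 1 to 3. In each pair the NRF2 siRNA library was lower, by -0.66, -0.67 and -1.04 in score. The change was -0.79 (SE 0.301, adjusted p = 0.159 in limma), and with the replicate number as a block the adjusted p was 0.0348. With a library left out the adjusted p was between 0.157 and 0.424 (limma). The nearest coding start is that of GPR132, 20776 bp away. DLL1 had no peak at its start. A region holding the start of another DLL1 transcript and that of the neighbouring gene FAM120B had no peak in replicate 1 of either group, and was at 6.3 and 45.9 in control and 21.2 and 41.9 in NRF2 siRNA replicates 2 and 3. It changed by 0.23 (adjusted p = 0.651 in limma). Of the 10 tested ligand regions, 4 changes were negative and 6 positive, with a median of 0.21 and 0 past the test in limma. At an unadjusted p below 0.05, 1 was lower, as were 3485 of all 32673 tested regions.

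HES1, the target gene most often read as a sign of NOTCH activity, was acetylated over a long stretch. Its start region (chr3:193847692-193861072, 13381 bp) was at percentiles of 88.3, 94.1 and 87.7 in control and 92.6, 96.8 and 96.6 in NRF2 siRNA replicates 1 to 3. In each pair the NRF2 siRNA library was higher, by 0.33, 0.28 and 0.74 in score. The scores of the groups did not overlap, while their percentiles did. The change of 0.45 (SE 0.216) did not pass the test (adjusted p = 0.258 in limma). With the mean fold weighted by peak length in place of the highest fold, it was -0.05, so that its direction depends on the summary. The length under peaks in the HES1 start region went the other way from the score. Peaks covered 10043, 10480 and 13225 bp in control and 6423, 8334 and 10720 bp in NRF2 siRNA replicates 1 to 3. This was less in each pair, at a ratio of means of 0.755, while the groups overlapped. A region 12484 bp upstream of HES1 (chr3:193837216-193841453) was at 66.5, 69.7 and 69.0 in control and 83.7, 80.8 and 83.8 in NRF2 siRNA replicates 1 to 3. The groups lay apart by more than their spread, and the change was 0.52 (SE 0.213, adjusted p = 0.189 in limma).

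The strongest of the upstream HES1 regions in control libraries, 21135 bp upstream (chr3:193827063-193832802), leaned the other way. It was at 99.2, 93.9 and 95.9 in control and 91.4, 88.6 and 91.0 in NRF2 siRNA replicates 1 to 3. The change was -0.54 (SE 0.281, adjusted p = 0.299 in limma), from -0.90, -0.34 and -0.38 in pairs 1 to 3. Without control replicate 1 it was -0.25. The regions 43138 and 31403 bp upstream changed by 0.34 and 0.11. None of the 5 tested HES1 regions passed the test in limma. At an unadjusted p below 0.05, 1 was higher, as were 3876 of all 32673 tested regions.

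**Figure D5:**
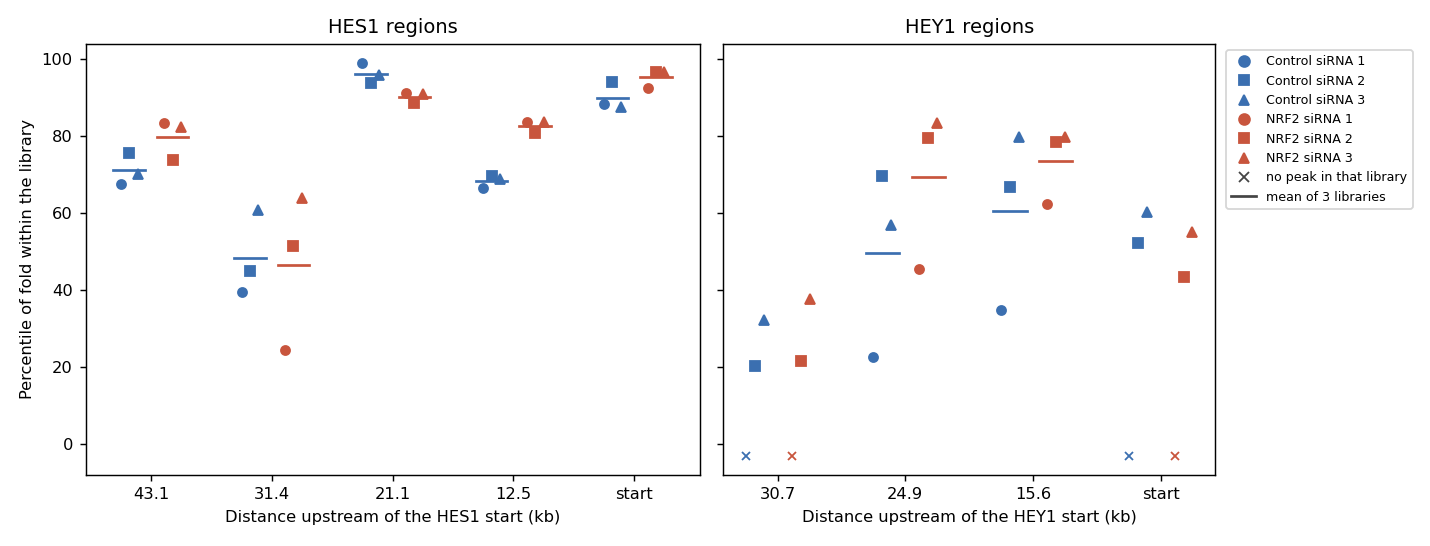
Percentile of the peak's fold within its library (y axis) for the tested regions of HES1 (left) and HEY1 (right), ordered along the x axis by distance upstream of the start in kb, blue for control and red for NRF2 siRNA, with the symbol giving the replicate, bars the means of 3 and crosses libraries without a peak. The HES1 region 12484 bp upstream lies between 66.5 and 69.7 in control and between 80.8 and 83.8 in NRF2 siRNA libraries.

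HEY1, a related target gene on chromosome 8, had a peak at its start region in 4 of 6 libraries, at percentiles of 52.2 and 60.2 in control and 43.4 and 55.2 in NRF2 siRNA replicates 2 and 3. The change was -0.01 (SE 0.349, adjusted p = 0.991 in limma). A peak covered the HEY1 start itself only in NRF2 siRNA replicate 3. The peaks stopped 672 and 600 bp short of it in control replicates 2 and 3, and 713 bp short in NRF2 siRNA replicate 2. A region 24903 bp upstream of HEY1 was at 22.5, 69.8 and 57.0 in control and 45.6, 79.5 and 83.3 in NRF2 siRNA replicates 1 to 3. It was higher in each pair, by 0.61, 0.30 and 0.95, while the groups overlapped, and the change was 0.62 (SE 0.260, adjusted p = 0.198 in limma). A region 15589 bp upstream changed by 0.37 (adjusted p = 0.39 in limma).

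RBPJ, the protein that carries the NOTCH signal to DNA, had a start region (chr4:26320187-26322629) at 71.7, 60.9 and 78.4 in control and 23.3, 71.0 and 80.2 in NRF2 siRNA replicates 1 to 3. Only NRF2 siRNA replicate 1 was low, and the change was -0.11 (SE 0.25, adjusted p = 0.851 in limma). Inside the gene, 86611 bp past the start and overlapping an exon (chr4:26407869-26408983), lay the region with the largest positive change among the 39. It had no peak in control replicate 1, was at 16.0 and 43.0 in control replicates 2 and 3, and was at 31.2, 56.8 and 53.5 in NRF2 siRNA replicates 1 to 3. The scores did not overlap and were higher in each pair, by 1.24, 1.02 and 0.41. The change was 0.89 (SE 0.224, adjusted p = 0.054 in limma), just short of the threshold. With the replicate number as a block the adjusted p was 0.0396, and with lists of equal length it was 0.0182 at a change of 1.07 (both limma). With a library left out it was between 0.0752 and 0.2 (limma), above the threshold in every such fit. The rise in pair 1 rests on the assigned lowest rank of control replicate 1. Over HES1, HEY1 and RBPJ, 12 regions were tested, 4 changes were negative and 8 positive, and the median was 0.26.

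The rest of the pathway was read from 48 further genes, from ligands and proteases to cofactors, inhibitors and other targets, with 308 regions. Of their 223 tested regions, 8 fell and 2 rose (limma, adjusted p below 0.05), or 3.59% and 0.897% beside the backgrounds of 3.39% and 2.01% given above. A region with peaks in 1 group only enters the test through the group where it is high, and its values in the other group are the assigned lowest rank. Without such regions, 5 fell and 1 rose. With the replicate number as a block, 16 fell and 7 rose over all 223, again without a share over all regions. Their median change was -0.07, with 126 changes negative and 97 positive. Of the 48 genes, 21 had a region over the start base with a peak in all 6 libraries, and 20 had no region over that base. Some of these had a region close by, such as FURIN and CTBP1, with one within 1 kb in 6 libraries.

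Among these, the only start region of a listed gene that fell was that of NUMBL (chr19:41195988-41197963), an inhibitor related to NUMB, which shares the region with the neighbouring gene COQ8B. It was at 85.1, 95.8 and 93.8 in control and 36.6, 55.9 and 64.97 in NRF2 siRNA replicates 1 to 3. Its change of -1.24 (SE 0.213, adjusted p = 0.0167 in limma) was close in size to that of NOTCH3 upstream, and its groups did not overlap. In genes of the MAML coactivators, a region in MAML2 (chr11:95717861-95719287) was at 76.5, 83.7 and 83.6 in control and had no peak in any NRF2 siRNA library. MAML3 had an intronic region that fell by 1.34, with a peak in 3 control libraries and 1 NRF2 siRNA library. Another MAML3 intron had a region with no peak in any control library, at 10.5, 35.8 and 42.4 in NRF2 siRNA replicates 1 to 3. The MAML2 region and the latter one of MAML3 are given by their calls, since the filter on libraries fixes the direction of their score.

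The acetyltransferase gene KAT2B held a region that rose, in an intron (chr3:20094780-20097314), at 24.3, 25.7 and 42.6 in control and 62.04, 69.5 and 67.9 in NRF2 siRNA replicates 1 to 3 (change 0.94, adjusted p = 0.0387 in limma). With a library left out, the KAT2B change was between 0.86 and 1.14. The adjusted p was then between 0.0568 and 0.169 (limma), so that no such fit passed the threshold. An intronic region of the corepressor gene SPEN fell by 1.88 (adjusted p = 0.0295 in limma). Other regions lay outside the gene they were assigned to. The start region of B4GALNT1 near DTX3 fell by 1.08, with its calls per library likewise not given. With a library left out its adjusted p was between 0.045 and 0.192 (limma). A region past HEYL and one in NCOA7 near the target gene HEY2 had peaks in 3 control and 0 NRF2 siRNA libraries, at 28.9, 63.5 and 82.6 and at 32.2, 41.7 and 54.5 in control replicates 1 to 3. Position is the only ground for these assignments, and which gene a region acts on was not measured.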

How the data were processed

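H3K27ac ChIP-seq peak lists of 6 A549 libraries were used. Per the labels and the study's methods, the authors aligned single-end reads of 101 bases to hg19 with Bowtie2 2.2.6, removed reads with a mapping quality under 20 with SAMtools, called broad peaks in each library with MACS2 2.1.0.20151222 and dropped peaks in the ENCODE blacklist. Each deposited peak has a score, a fold enrichment as a ratio, and −log10 p- and q-values. Whether an input served as background is not given in the sources used here. The lists hold no read counts per region. The study's read totals per library are cited above for depth but did not enter the comparison, since ranks within a list were compared.

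Regions, percentiles and scores were made as described above. Scores were compared with limma 3.58.1 (lmFit, eBayes; R 4.3.3), with Benjamini-Hochberg adjustment over 32673 regions at a threshold of 0.05. Single values were compared by exact permutation tests (scipy 1.17.1). On simulated scores for this comparison over 32673 regions, 200 of them shifted, limma recovered 71.5% of shifts of 2 with 5 false calls and 0% of shifts of 1 with 0 false calls. Genes came from GENCODE on GRCh37. The 24 chromosome names match, and of 202238 peaks 136 on other contigs were not assigned to genes.

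Same-numbered libraries deviated together (r = 0.398, 0.199 and 0.363), and the numbers in the titles were used as pairs in the fit with a block. The main fit left the pairs out. Whether the numbers mark true pairs or only shared depth and batch was not tested. Peak names carry a flow cell identifier in replicates 2 and 3 but not in replicate 1, so values per pair are given. The terms for a difference between siRNA 28 and 30 passed the threshold in 0 of 32673 regions (limma), with 3871 at an unadjusted p below 0.05. Genes, lists and rules were chosen with earlier results of these data known. Named were the NOTCH3 regions, the start or nearest region of each other gene, the 3 lowest and 3 highest changes among the other members, and pathway regions past the threshold. Other regions of NOTCH1, JAG1, HES1 and HEY1 were named after their values were seen. The planned comparison with the NOTCH3 start could not be made, as it had no peak. Results on 2 NOTCH3 regions and 1 other pathway region that fell are not reported here, though counts include them.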

Additional observations from a re-analysis of the deposited data

How the results depend on the processing

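The fall upstream of NOTCH3 kept its direction in all 15 alternatives, from -2.03 to -1.07, and passed the threshold in 10 (adjusted p between 0.00382 and 0.0422). It did not pass in 5 of the 6 fits that left out a library, whose changes were between -1.59 and -1.14. These fits have fewer libraries. The 5 differences from start regions kept their sign in all 59 alternatives.

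Regions of the 10 genes that fell numbered 1, against 2 with the replicate number as a block and 0 to 1 with a library left out (0 without each control library and without NRF2 siRNA replicates 2 and 3). Those that rose numbered 0, against 1 with the block and 1 with lists of equal length. Regions found in the control group alone (a peak in each of its libraries) numbered 0, against 0 to 2 with a library left out. Of the other pathway genes, 8 regions fell, against 16 with the block, 3 at a q-value of at most 1e-05, 1 among regions in all 6 libraries, 13 with the trend and robust options, 13 in the siRNA 30 pairs alone, 5 within 20 kb, 14 within 100 kb and 0 to 10 with a library left out. They rose in 2, against 7 with the block, 5 with equal lists, 0 at the stricter q-value, 1 with no filter on libraries, 4 with trend and robust, 8 in the siRNA 30 pairs, 4 within 100 kb and 0 to 2 with a library left out. The causes were not tested.

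Of the other named regions, 603 results kept direction and side, 47 no longer passed, 6 newly passed and 25, in 13 regions, changed sign. None of the 13 had passed the test. Signs turned in the siRNA 30 pairs for the NOTCH1 start (-0.33, and -0.19 at the stricter q-value), the NOTCH1 region at SEC16A (-0.16), the JAG1 domain (0.042) and the RBPJ start (0.19), and with length-weighted folds for the HES1 start (-0.054). With a library left out, changes ran from -0.37 to 0.27 at the NOTCH1 start, -0.19 to 0.22 at SEC16A, -0.41 to 0.14 in the NOTCH1 body, -0.22 to 0.024 in the JAG1 domain, -0.072 to 0.44 in the JAG1 intron, -0.40 to 0.23 at the HEY1 start, -0.26 to 0.10 at the RBPJ start and -0.71 to 0.019 far upstream of RBPJ. They ran from -0.093 to 0.36, -0.14 to 0.24, -0.19 to 0.079 and -0.026 to 0.24 in the NOTCH4 regions starting at 32121065, 32156836, 32162647 and 32223035.

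A region lacking a peak took the lowest rank, and this rank is higher in a shorter list, so a region without a peak in either library of a pair can still give a change (0.25 at the HEY1 start in pair 1). The simulated test found no shift of 1 unit. It shifted only 200 regions, while 1108 fell and 657 rose in the data, so the cutoff after adjustment differs between them. In the data, the rise in KAT2B passed at under 1 unit in the main fit, but not with a library left out. Changes of the size seen at HES1, HEY1 or JAG2 could be missed, but the simulation does not give how often.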
